A study of Mus musculus with 3 samples.

Results

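The Iroquois genes lie in 2 groups of 3 on the mouse genome, and the peaks of Notch2 chromatin immunoprecipitation and sequencing (ChIP-seq) in both groups are described here. The regions were set by position on the mm9 build, from 71900000 to 73300000 on chromosome 13 for Irx1, Irx2 and Irx4, and from 94200000 to 95200000 on chromosome 8 for Irx3, Irx5 and Irx6. A peak, a stretch with an excess of sequenced fragments, was counted in a window when its midpoint lay inside. The windows held 44 of the 41236 listed peaks, 29 of 28651 in replicate 1 and 15 of 12585 in replicate 2. Both replicates were whole embryonic kidneys at E16.5, crosslinked and precipitated with the same antibody to Notch2, and no genotype, strain or treatment is given. The tissue holds all cell types of the kidney, so that a peak cannot be assigned to one of them. A single input sample of the same tissue and stage was not analysed here. Nothing in the labels says that the replicates came from separate litters, so differences between them may be technical.

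Iroquois proteins are homeodomain transcription factors of the TALE class that divide developing tissues into territories. Both clusters arose from one ancestral cluster, and their genes lie far apart in stretches with many distant regulatory elements. In the forming nephron, Irx1, Irx2 and Irx3 are known from the middle part of the S-shaped body and from the tubule segments that it gives rise to. Notch2 is a receptor whose intracellular part, once released, enters the nucleus and joins RBPJ, a protein that binds DNA. In the nephron the receptor is known for its part in the formation of proximal segments. Irx4 is known from the ventricles of the heart, Irx5 from the gradient of repolarisation across the heart wall, and Irx6 from bipolar cells of the retina.

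The genes of each cluster were neighbours among protein-coding genes in a RefSeq gene table of the GRCm38.p6 build, used for order alone. No other protein-coding gene stood between Irx1 and Irx2, between Irx2 and Irx4, between Irx3 and Irx5, or between Irx5 and Irx6. Between Irx1 and Irx2 the table had 3 long noncoding RNAs and 3 pseudogenes, and between Irx2 and Irx4 it had 5 long noncoding RNAs and 1 pseudogene. Irx3 and Irx5 had 7 long noncoding RNAs and 1 other RNA gene between them. No gene model of mm9 was used here, so the peaks are given by position and no peak is assigned to one of the 6 genes. For the same reason the lists, which hold positions only, cannot be used to check where in its window each gene lies. Whether every gene lies wholly inside its window was not checked. This concerns in particular Irx4 and Irx6, the last genes of their clusters, which may lie close to the upper edges of their windows or beyond them. Values for these edges and for the flanks above them are to be read with this limit.

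The core of the RBPJ binding motif is TGGGAA, or TTCCCA on the other strand. RefSeq promoter sequences of GRCm38.p6 were found for 3 of the 6 genes, namely Irx2, Irx3 and Irx4. In the 250 bases before the start of transcription, 2 of these promoters held the motif on either strand, beside 21.6% of the 32851 promoters in the table. The Irx4 promoter held no match. The stretches of 30 bases around both matches are shown because they are the places in these promoters where the letters of the core occur, with the match in capitals. They run 5′ to 3′ on the strand of the gene, which is the minus strand for Irx3 and the plus strand for Irx2:

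Irx3: aagaaccgcagtTTCCCAgcgtccaggact

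Irx2: cttcccctccacTTCCCAcccctccgctct

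In Irx3 the match began 82 bases before the start, and in Irx2 163 bases before it, and both lay on the strand opposite to the gene. A match of 6 letters is a description of the sequence. Whether a Notch2 peak lay over either promoter was not determined, because the promoter sequences and the peaks are on different builds.

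The first comparison set the clusters against each other in peak density. No difference in the number of Notch2 peaks per Mb was detectable between the cluster of Irx1, Irx2 and Irx4 and that of Irx3, Irx5 and Irx6. In replicate 1 the chromosome 13 window held 17 peaks in 1.4 Mb, or 12.1 per Mb, and the chromosome 8 window held 12 in 1 Mb. Their ratio was 1.01 (95% exact interval 0.455 to 2.32; two-sided exact binomial p = 1, adjusted p = 1 over 4 tests). In replicate 2 there were 8 and 7 peaks, or 5.71 and 7 per Mb, and the ratio was 0.816 (0.259 to 2.64; exact p = 0.795, adjusted p = 1). With so few peaks the intervals leave room for a chromosome 13 density of 0.455 to 2.32 times that of chromosome 8 in replicate 1. In replicate 2 they leave room for 0.259 to 2.64 times, so large differences in either direction remain possible. The direction of the small difference turned under some settings of the window and of the list, as given under the dependence on processing. These intervals and tests treat peaks as independent and cover counting error only.

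Neither cluster stood out from the autosomes in density. Other autosomal sequence held 11.8 peaks per Mb in replicate 1 and 5.18 in replicate 2. Density in the chromosome 13 window was 1.03 times that value in replicate 1 (95% exact interval 0.60 to 1.65) and 1.10 times in replicate 2 (0.476 to 2.17). For chromosome 8 the ratios were 1.02 (0.526 to 1.78) and 1.35 (0.543 to 2.79). All 4 intervals included equality. Peaks covered 0.918% of the chromosome 13 window in replicate 1 and 0.441% in replicate 2, and 1.03% and 0.557% of the chromosome 8 window. Over the autosomes the covered shares were 0.899% and 0.346%.

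All consecutive windows of the same length on the autosomes gave the spread against which these numbers can be read, without any random draw. At least as many replicate 1 peaks as in the Irx1, Irx2 and Irx4 window were found in 45.5% of 1704 windows, whose median was 15 peaks and whose interquartile range was 7 to 23. For replicate 2 the share was 38.2%, with a median of 6 peaks. The Irx3, Irx5 and Irx6 window was equalled or exceeded by 45.3% of 2390 windows in replicate 1, with a median of 10 peaks. In replicate 2 the share was 29.8%, with a median of 4 and an interquartile range of 1 to 7. Both clusters therefore lay above the median and within the interquartile range in both lists. The chromosome 8 window lay at the upper end of that range in replicate 2. The fullest windows of these lengths held 82 and 71 replicate 1 peaks.

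**Figure D1:**
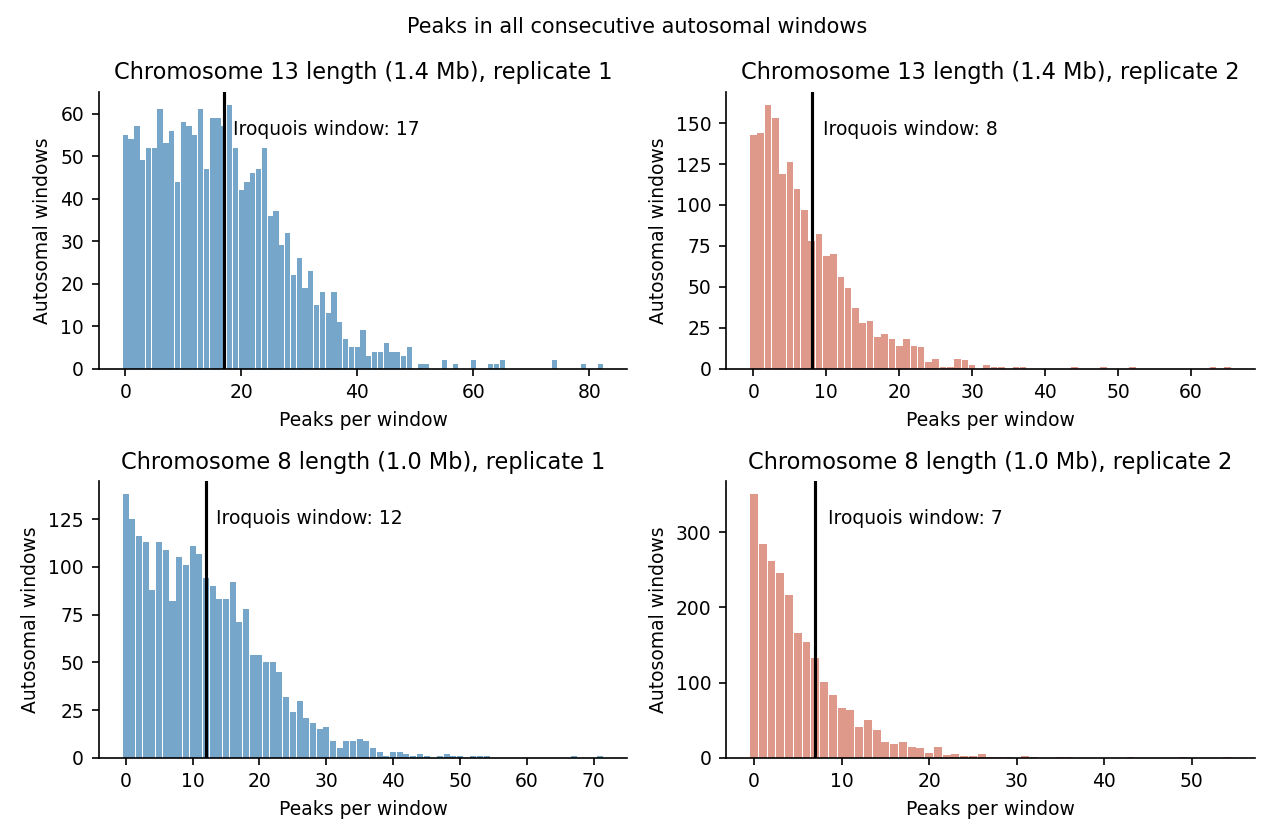
Number of consecutive autosomal windows (vertical axis) by the number of Notch2 peaks they hold (horizontal axis), for windows of the length of the chromosome 13 window (top) and of the chromosome 8 window (bottom), in replicate 1 (left) and replicate 2 (right). The black lines mark the Iroquois windows at 17, 8, 12 and 7 peaks, all within the interquartile range, the last at its upper end.

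The second comparison concerned the sharing of sites between the replicates. Each of the replicate 2 peaks in the windows had a counterpart in replicate 1, that is, a peak with 1 bp or more in common. This held for 8 of 8 on chromosome 13 (95% Wilson interval 67.6 to 100%) and 7 of 7 on chromosome 8 (64.6 to 100%). Over the whole replicate 2 list 75.5% of peaks did so. For both windows together, a pooling that was not planned, the count was 15 of 15 (79.6 to 100%), an interval above the share of the list. With 100 kb more on either side it was 16 of 19 (62.4 to 94.5%), an interval that includes that share. An overlap of 50% of both peaks left 12 of 15 (54.8 to 93.0%), and centres within 250 bp left 13 of 15 (62.1 to 96.3%). The share of the list under these criteria is not given here. Complete sharing also occurred elsewhere, in 9 of the 78 windows of 1.4 Mb with 8 replicate 2 peaks (11.5%) and in 23 of the 133 windows of 1 Mb with 7 (17.3%). It also depended on the window edges, because 100 kb more on either side of the chromosome 8 window brought in 4 replicate 2 peaks, and 8 of 11 were then shared (72.7%). On chromosome 13 the same extension left 8 of 8.

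From the side of replicate 1, 8 of the 17 chromosome 13 peaks were shared (47.1%, 95% Wilson interval 26.2 to 69.0%), and 7 of the 12 chromosome 8 peaks (58.3%, 32.0 to 80.7%). The share over the whole replicate 1 list was 33.0%. That value lay inside the interval on chromosome 13 and just inside it on chromosome 8. Both windows together had 15 of 29 shared peaks, or 51.7% (34.4 to 68.6%), an interval that lies just above the share of the list. With 100 kb more on either side they had 16 of 33, or 48.5% (32.5 to 64.8%), an interval that includes that share. An overlap of 50% of both peaks left 12 of 29, or 41.4% (25.5 to 59.3%). Centres within 250 bp left 13 of 29, or 44.8% (28.4 to 62.5%), and the share of the list under these criteria is not given here. The pooled counts of both replicates rest on the same 15 pairs of peaks, and their intervals treat peaks as independent. The difference from the list was not tested. The clusters did not differ detectably from each other in sharing (two-sided Fisher's exact test, p = 0.710 in replicate 1 and p = 1 in replicate 2; adjusted p = 1 for both, over 4 tests). Replicate 1 had 2.13 peaks for each replicate 2 peak on chromosome 13 (95% exact interval 0.869 to 5.69) and 1.71 on chromosome 8 (0.622 to 5.14), beside 2.28 over the whole lists.

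**Figure D2:**
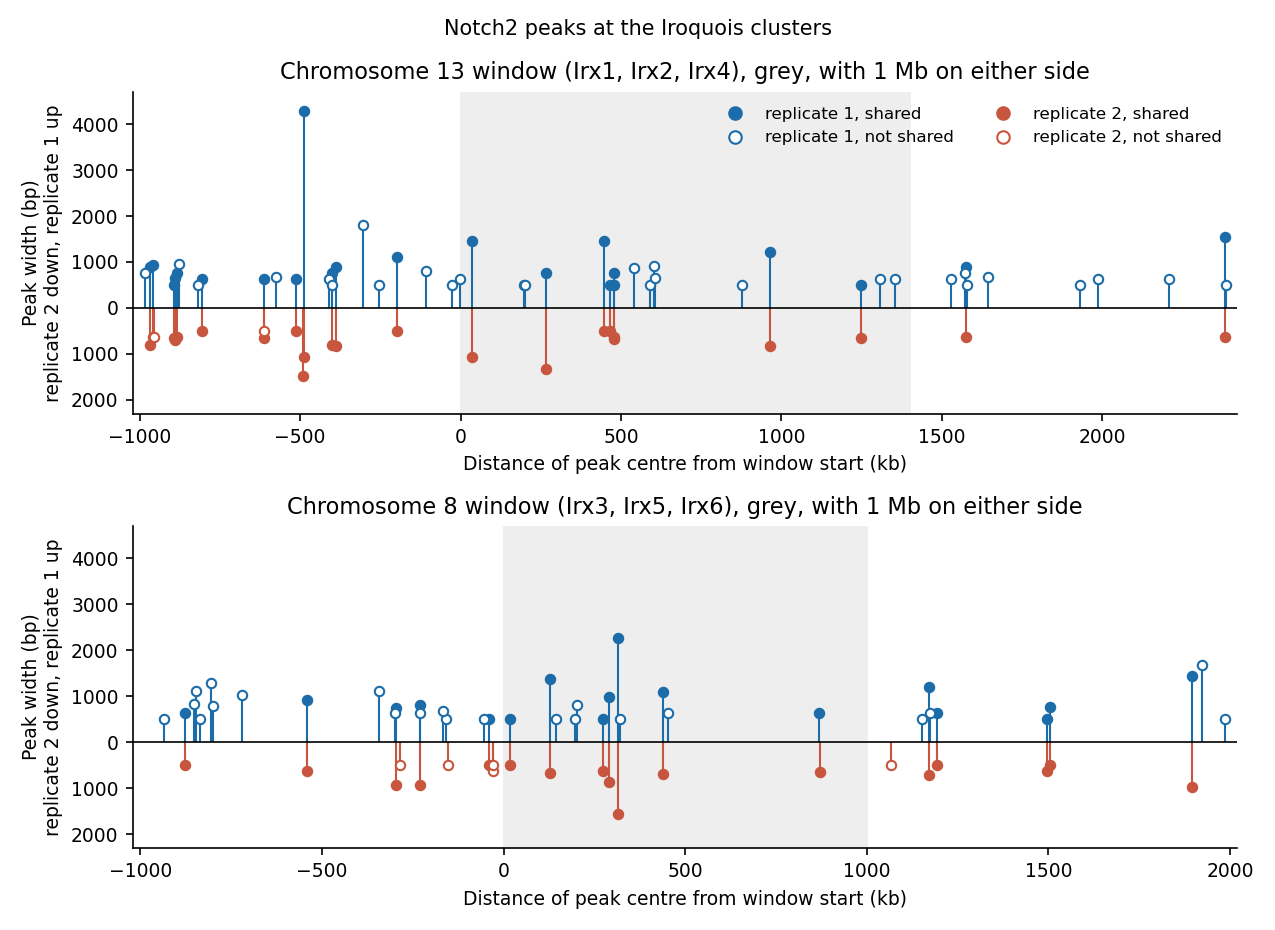
Width of each Notch2 peak in bp (vertical axis, replicate 1 upward and replicate 2 downward) by the distance of its centre from the start of the window in kb (horizontal axis), for the chromosome 13 window (top) and the chromosome 8 window (bottom), both shaded, with 1 Mb on either side. Filled points are peaks that overlap one of the other replicate, and every replicate 2 peak inside the shaded windows is filled.

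At Irx1, Irx2 and Irx4 the region placed first in both lists was the same one, near the lower edge of the window. In replicate 1 it ran from 71935700 to 71937157, measured 1458 bp and held place 383 of 28651. Its replicate 2 counterpart ran from 71935768 to 71936825, measured 1058 bp, held place 2075 of 12585 and lay wholly inside the replicate 1 peak. Place is the order of the peaks in the deposited file, whose meaning the sources used here do not give.

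The next shared region, from 72166114 to 72166866 in replicate 1, had its wider peak in replicate 2. It measured 753 bp at place 8617 in replicate 1 and 1319 bp at place 2202 in replicate 2, where it was the widest peak of the window. A region from 72347102 to 72348558 went the other way, with 1457 bp in replicate 1 and 500 bp in replicate 2, the narrowest width in the lists. Such contrasts show that width at the same site differed by up to 2.91-fold between the replicates in this window.

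A further 3 shared regions followed it closely and made up the densest shared stretch of the chromosome 13 cluster. One from 72364486 to 72364985 measured 500 bp in both replicates but stood at place 23152 in replicate 1 and 4392 in replicate 2. It belonged to the last 25% of one list and to the first 50% of the other. The remaining ones formed a pair, from 72377594 to 72378356 (763 bp and 629 bp) and from 72379137 to 72379636 (500 bp and 686 bp). This pair was the only run of neighbouring shared peaks in either window, where a run joins peaks whose edges lie within 12.5 kb.

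The upper part of the chromosome 13 window was sparse. Its shared regions ran from 72864248 to 72865455 (1208 bp, and 839 bp for its counterpart) and from 73146410 to 73146909 (500 bp and 647 bp). No peak of either list lay between them, over 281 kb. A second empty stretch of 270.5 kb ran from 72506574 to 72777060. The lower 700 kb of the window thus held 12 of the 17 replicate 1 peaks and 6 of the 8 replicate 2 peaks.

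The 9 replicate 1 peaks of this window without a counterpart lay 59.4 to 126 kb from the nearest replicate 2 peak. None of them stood close to an overlap. The widest ran from 72503374 to 72504287 (914 bp, place 11607) and from 72439024 to 72439894 (871 bp, place 10351). These and 3 narrower peaks stood in the longest gap of replicate 2, from 72379596 to 72864241, where replicate 1 listed 5 peaks and replicate 2 none. A pair of 500 bp peaks from 72096762 to 72100407 was among the last in the list, at places 25607 and 28583 of 28651.

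At Irx3, Irx5 and Irx6 the first region of both lists was again the same, and it was the widest peak of either window. It ran from 94512951 to 94515215 in replicate 1, with 2265 bp at place 321, and from 94512862 to 94514426 in replicate 2, with 1565 bp at place 1666. By width it ranked 188 of 28651 in replicate 1 and 240 of 12585 in replicate 2. Its centres lay 439 bp apart, the largest distance among the 15 shared pairs, because the replicate 1 peak reached further on the upper side.

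Next in mean place was the region from 94490729 to 94491705 lying 21.2 kb below it, with 977 bp at place 1965 in replicate 1 and 857 bp at place 3437 in replicate 2. A region far down the list of replicate 1 ran from 94472338 to 94472837, with 500 bp at place 26849 in replicate 1 and 633 bp at place 9593 in replicate 2. Together with a region from 94637839 to 94638936 (1098 bp and 692 bp) these were the 4 shared sites in the second of 4 equal parts of the window. That part, 250 kb long, held 6 replicate 1 and 4 replicate 2 peaks, the most of any part of this window.

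The other shared regions of the chromosome 8 cluster lay in other parts of the window. One, between 94328019 and 94329384, had 1366 bp in replicate 1 against 674 bp in its counterpart. Another, from 94215986 to 94216485, had the same width of 500 bp in both lists and centres 19 bp apart, the closest of all pairs. Toward the upper edge a single region from 95069425 to 95070053 (629 bp and 651 bp) was the only site of either list above 94654221. Below it no peak was listed from 94654222 to 95069424, a stretch of 415 kb, the longest empty stretch of both windows. The lower 500 kb of the window held 11 of its 12 replicate 1 peaks and 6 of its 7 replicate 2 peaks.

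Replicate 1 peaks without a counterpart numbered 5 on chromosome 8. Here 3 of them lay within 5.39 to 15.2 kb of a replicate 2 peak, and the others 66.8 and 68.7 kb away. The widest ran from 94402594 to 94403403 (810 bp, place 10367) and from 94653592 to 94654221 (630 bp, place 17242), and the remaining 3 measured 500 bp. One of these, from 94519821 to 94520320, stood beside the widest region and formed a run of 7.37 kb with it.

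In both windows the shared replicate 1 members had a larger median width and an earlier median place than the unshared ones. Over all members, median width in replicate 1 was 636 bp on chromosome 13 and 629.5 bp on chromosome 8, against 637 bp over the list. In replicate 2 it was 666.5 and 674 bp, against 626 bp. Peaks of 500 bp made up 7 of 17 and 5 of 12 members in replicate 1, and 2 of 8 and 1 of 7 in replicate 2, beside 31.8% and 47.9% of the whole lists. Shared replicate 1 members had a median width of 758 bp on chromosome 13 and 977 bp on chromosome 8, and unshared ones 635 and 500 bp. The whole list had medians of 768 bp for shared and 630 bp for unshared peaks. These are descriptions of few peaks, without a test.

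Median place in the list of replicate 1 was 35.1% for shared and 78.4% for unshared members on chromosome 13, and 25.7% and 60.2% on chromosome 8. The corresponding medians of the whole list were 23.5% and 61.8%. Shared and unshared members overlapped widely in place, since shared members reached 80.8% on chromosome 13 and 93.7% on chromosome 8. The first 25% of the list, which holds that share of all peaks by construction, had 3 of 17 and 2 of 12 members in replicate 1, and 2 of 8 and 1 of 7 in replicate 2. The last 25% had 6 of 17 and 3 of 12 members in replicate 1, and 0 of 8 and 2 of 7 in replicate 2, numbers too small to set the members apart from their lists.

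**Figure D3:**
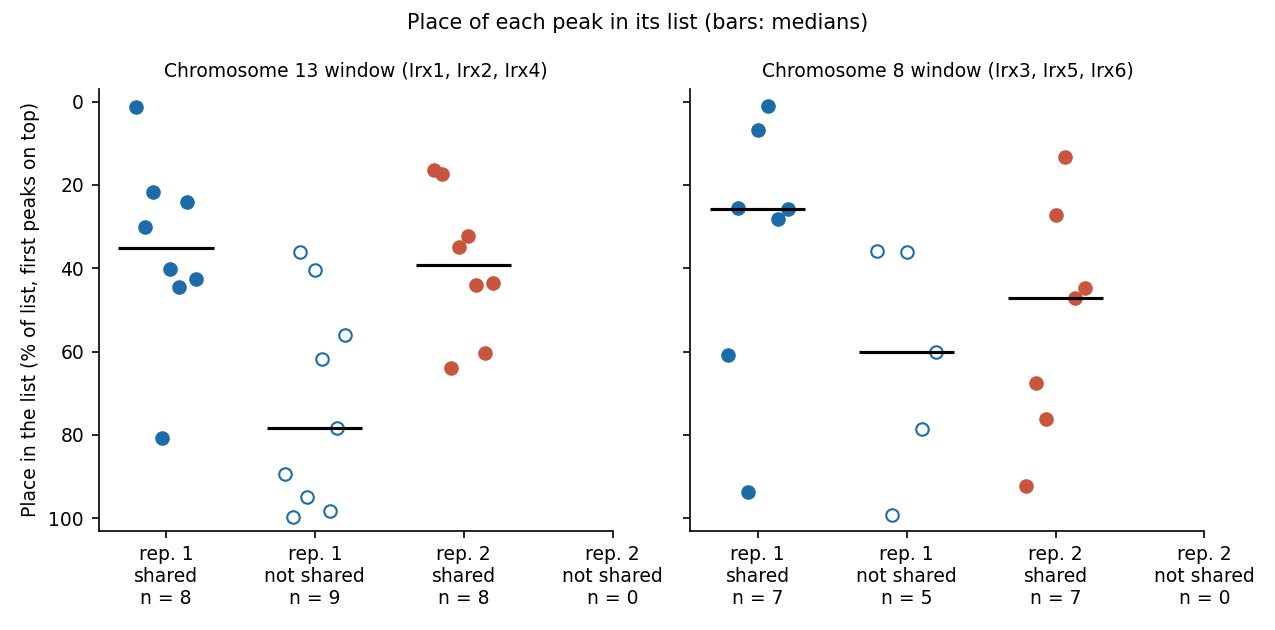
Place of each Notch2 peak in its list, as a percentage of the list with the first peaks on top (vertical axis), for shared and unshared peaks of each replicate (horizontal axis) in the chromosome 13 window (left) and the chromosome 8 window (right). Points are peaks and bars are medians, and shared replicate 1 peaks have earlier medians (35.1% and 25.7%) than unshared ones (78.4% and 60.2%).

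Shared pairs were chosen for their overlap, which by itself brings centres near each other. Centres lay 48 to 190.5 bp apart on chromosome 13, with a median of 110.75 bp, and 19 to 439 bp apart on chromosome 8, with a median of 105 bp. Over the whole lists the median was 80 bp in 9355 pairs with a single counterpart, below the medians of both windows. Replicate 1 had the wider peak in 4 of 8 pairs on chromosome 13 and in 4 of 7 on chromosome 8, beside 66.6% over the whole lists.

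How many peaks stood alone depended on the distance used to join neighbours. Of the replicate 1 peaks, 11 of 17 on chromosome 13 and 8 of 12 on chromosome 8 had no neighbour within 12.5 kb, beside 52.4% of the whole list. The others formed 3 and 2 runs, none of more than 2 peaks. In replicate 2, 6 of 8 and 7 of 7 peaks stood alone, beside 63.4% of the whole list. At this distance neither Iroquois cluster held a run of 3 or more Notch2 peaks. At 25 kb, 8 of 17 and 2 of 12 replicate 1 peaks stood alone, beside 35.0% of the whole list, and the longest run held 4 peaks in each window. In replicate 2 the lone peaks at 25 kb were 4 of 8 and 4 of 7, beside 49.2% of the whole list, with runs of 4 and 3 peaks.

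The sequence beside the windows was compared after the values had been seen. The 1 Mb below the chromosome 13 window held 23 replicate 1 peaks and 15 replicate 2 peaks, more per Mb than the window. The density of the window was 0.528 times that of this flank in replicate 1 (95% exact interval 0.265 to 1.03) and 0.381 times in replicate 2 (0.140 to 0.957). Only the second interval excluded equality, and it was not adjusted for the 8 flank comparisons made. These intervals, too, treat peaks as independent and cover counting error only. The 1 Mb above the window held 10 and 2 peaks. The density of the window was 1.21 times that of this upper flank in replicate 1 (0.525 to 2.97) and 2.86 times in replicate 2 (0.570 to 27.6). Beside the chromosome 8 window there were 18 and 9 peaks below and 9 and 6 above, and every interval of the ratio included equality. In both replicates and on both chromosomes the density was highest below the window and lowest above it. This order was not tested, and most replicate 2 peaks of these stretches overlap a replicate 1 peak, so the replicates do not show it independently.

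**Figure D4:**
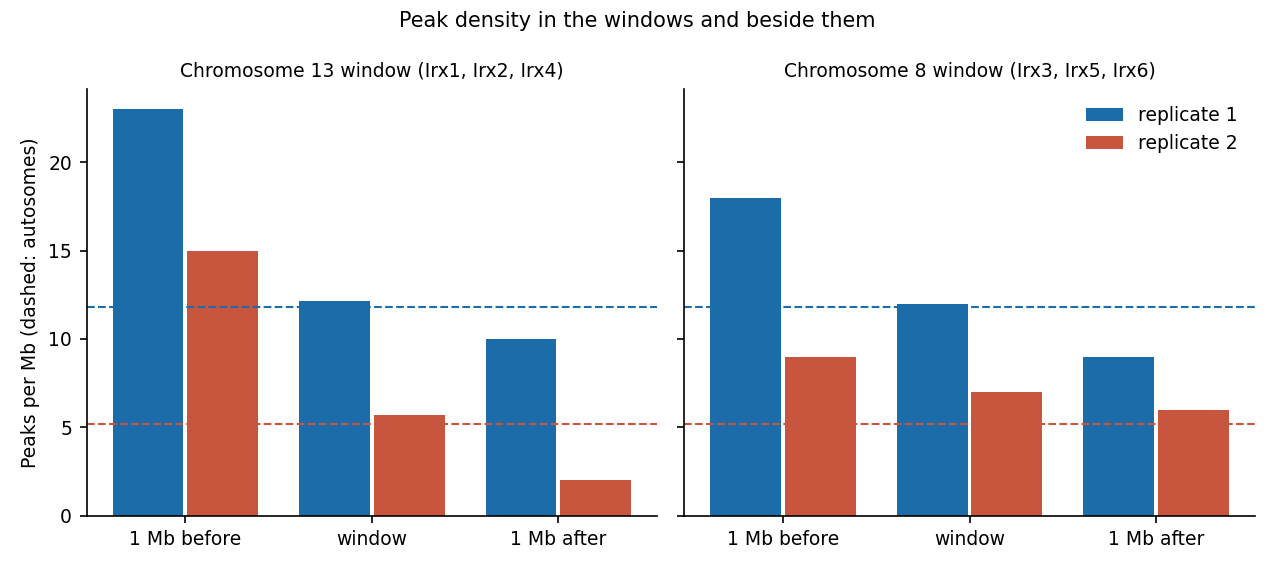
Notch2 peaks per Mb (vertical axis) in the 1 Mb below each Iroquois window, in the window and in the 1 Mb above it (horizontal axis), for chromosome 13 (left) and chromosome 8 (right), with 1 bar per replicate. Dashed lines are the densities over the autosomes, 11.8 per Mb in replicate 1 and 5.18 in replicate 2, and the flank below chromosome 13 has the highest bars at 23 and 15.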

How the data were processed

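Peak lists of 2 Notch2 samples were used. The submitters' processing notes name the tools Bowtie, SAMtools and HOMER and the build mm9, but no version and no role. How peaks were called is not given in the sources used here. Besides the chromosome, the deposited lists hold only a start and an end per peak, in bp and without any score or count, so the depth is unknown. The authors listed peaks per sample. Exact repeats of a row (242 in replicate 1 and 480 in replicate 2) were counted once, and positions are given counted from 1.

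A peak with 1 bp or more in common with one of the other list was taken as shared. Densities were compared by an exact binomial test and shares by Fisher's exact test, with Benjamini-Hochberg adjustment over 4 tests. Consecutive windows began at the outermost peak of each autosome and took the place of random windows. Named regions were, in each window, up to 8 shared peaks of best mean place, the 2 widest unshared replicate 1 peaks and the unshared replicate 2 peaks. The planned protein comparison was not run, and protein sequences were not used here. Members, lists and tests were chosen with earlier results of these data known. Counting of overlaps and of peaks per window was tested on simulated data and was exact in 20 of 20 lists. No simulated peaks lay close enough to be joined, so the joining of peaks into runs was not tested. The software was matplotlib 3.10.9, scipy 1.17.1, pandas 2.3.3 and numpy 2.4.6 under Python 3.11.15.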

Additional observations from a re-analysis of the deposited data

How the results depend on the processing

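Neither comparison of the clusters passed the threshold under any setting, and the design allows only large differences to be seen. The ratio of densities between chromosomes 13 and 8 turned to 0.848 in replicate 1 with windows shortened by 100 kb and to 0.918 with the first 50% of the list, and to 1.07 in replicate 2 with the first 50%. In the other 9 settings it kept its direction, at 0.545 to 1.14. The difference in sharing in replicate 1 turned from -11.3 to 5.39 percentage points with centres within 250 bp. In replicate 2 that criterion left 8 of 8 and 5 of 7 peaks shared. With the first 50% of both lists 5 of 6 and 4 of 4 were. Shares of shared peaks stayed inside their main Wilson intervals in all 24 cases, but these intervals are wide, so this says little about stability. The chromosome 8 share in replicate 2 fell from 100% to 72.7% with windows extended by 100 kb. It fell to 71.4% with an overlap of 50% of both peaks and also with centres within 250 bp. Shortened windows, the first 50% of the lists and peaks widened by 500 bp left it at 100%.

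The percentage of windows with at least as many peaks moved most in the first 50% of the lists, to 41.0% and 22.8% for chromosome 13 (replicates 1 and 2) and to 37.4% and 26.1% for chromosome 8. On the same chromosome alone it was 49.4% in both replicates for chromosome 13 and 32.8% in replicate 2 for chromosome 8. Runs in the chromosome 8 window numbered 1 at 5 kb and 4 at 25 kb in replicate 1. At 25 kb there was 1 in replicate 2 and 1 among shared peaks. A longer joining distance can add runs or merge them, and in replicate 1 the chromosome 13 window had 3 at both distances. The cause of these shifts was not tested. With 1 list per replicate, no overlap can be measured without a replicate. No paired analysis was made. The input, the only other group, is a single sample whose title names neither replicate, and it was not analysed here.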

Other observations

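A wide region stood outside the chromosome 13 window. It ran from 71408630 to 71412919 in replicate 1, 487 kb below the window, measured 4290 bp (rank 6 by width) and held place 2 of 28651. Replicate 2 listed a pair of peaks under it, from 71408587 to 71410063 (1477 bp, place 20) and from 71410705 to 71411764 (1060 bp, place 55). No peak inside either Iroquois window was listed as early in its list. It was singled out after the values were seen, and no gene is assigned to it.

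The peaks nearest to the window edges were also read. On chromosome 13 a replicate 1 peak from 71898317 to 71898942 (626 bp, place 2348) lay 1.06 kb below the window and had no counterpart. Below the chromosome 8 window, replicate 2 listed peaks from 94169165 to 94169793 (629 bp) and from 94170315 to 94170814 (500 bp) without a counterpart, the nearer 29.2 kb from the edge, and above it one from 95267304 to 95267803 (500 bp), 67.3 kb away.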
